A study of Mus musculus with 2 samples.

Results

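The genes described here are 8 components of the machinery that decides between survival, apoptosis and necroptosis downstream of death receptors: Mlkl, Ripk1, Ripk3, Casp8, Cflar, Fadd, Tradd and Cyld. They were taken by gene symbol from the count tables, which were joined by gene identifier. All 8 were found among the 51084 identifiers that the tables share, and all 8 were among the 12779 genes that reached 1 CPM (count per 1000000 scaled counts) in either library or both. The gene model of each had the same length in both tables.

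As background, ligation of a death receptor such as TNFR1 brings TRADD and the kinase RIPK1 into a signalling complex that is held in a pro-survival state by ubiquitin chains. When those chains are trimmed, for which the deubiquitinase CYLD is known, RIPK1 can bind FADD and procaspase-8. The partner of caspase-8 then sets the outcome. Pairs of caspase-8 with the inactive homologue cFLIP, the product of Cflar, limit killing, whereas caspase-8 dimers start apoptosis. Where caspase-8 activity is missing, RIPK1 and RIPK3 join through their RHIM motifs and RIPK3 phosphorylates the pseudokinase MLKL, which breaches the plasma membrane. Macrophages are known to take this necroptotic route when caspases are blocked during Toll-like receptor or interferon signalling.

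RNA was sequenced from macrophages differentiated in culture from the bone marrow of C57BL/6J mice. The treated sample received CANDI470, which the labels give as a code name, at 1 mg/mL on culture day 7, and the control sample received PBS. A title line in the deposited count table of the treated sample names BTZ beside the number of the agent. The sources used here do not say what BTZ stands for or whether it was in this sample, so every value called CANDI470 below is that of the library so labelled. RNA was collected 12 h after treatment, and polyadenylated RNA was sequenced. Each group had 1 sample here and samples given empty CANDI were not used, so what the empty preparation does by itself cannot be told apart from CANDI470. With no replicates no test was run, no difference has a replicate check, and the 95% exact intervals below cover counting error only.

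The CANDI470 library held 41646905 counts on genes and the control library 28442450. Macrophage identity was visible in both, since all 10 macrophage markers examined were detected, led by Lyz2 (lysozyme) at 7274 CPM with CANDI470 against 13840 CPM with PBS. Csf1r, the receptor for the macrophage growth factor, was at 560 and 2653 CPM, and Cd14, a co-receptor for lipopolysaccharide, at 2433 and 612 CPM. The tables rest on different gene annotations, and counting and library preparation cannot be told apart from treatment. Mitochondrially encoded genes took 0.840% of the counts on shared identifiers in CANDI470 and 2.90% in the control, and the part of this in the results was not tested. In these bulk samples, a changed share of a cell type and a changed amount of RNA per cell cannot be told apart.

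Of the 8 genes, 5 stood at least 2-fold higher in CANDI470 (Mlkl, Cflar, Ripk3, Casp8 and Ripk1), against 25.7% of all 12779 genes. Fadd was the 1 gene at least 2-fold lower, against 23.6% of all genes, and Tradd and Cyld were within 2-fold. At 4-fold, Mlkl, Cflar and Ripk3 were higher, against 11.5% of all genes. Ripk3 fell short of 4-fold with library totals (log2 difference 1.78) and with a pseudocount of 5 CPM (1.98). Casp8 passed 4-fold with DESeq2 size factors (2.02). The median log2 difference was 1.52 over the 8 genes and -0.01 over all genes. A log2 difference is the CANDI470 value of log2(CPM + 1) less that of the PBS control, with CPM scaled by edgeR's TMM factors. The 2-fold limit describes size only, since no test was possible. Together the 8 genes went from 309 CPM in the control to 2548 CPM in CANDI470.

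**Figure D1:**
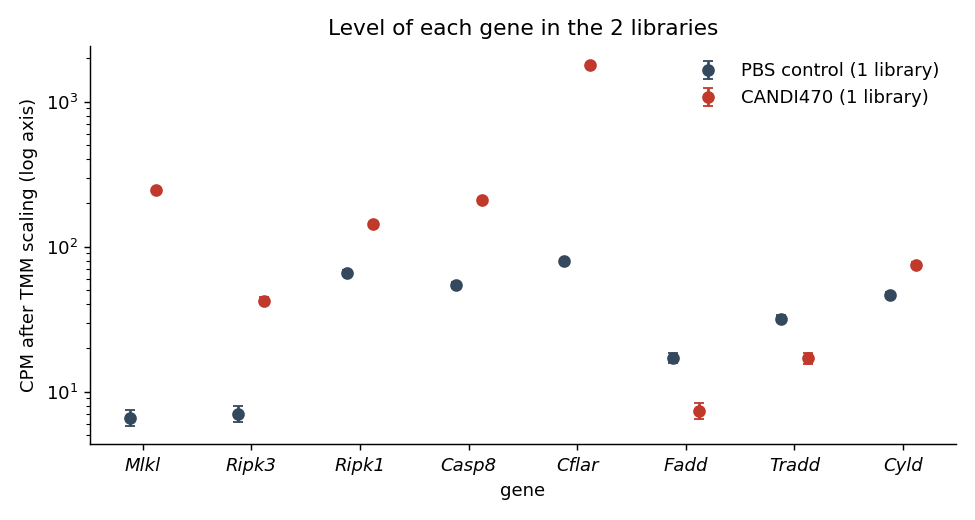
Level of each gene in the PBS control library and the CANDI470 library, as CPM after TMM scaling on a log axis, with 95% exact Poisson intervals that cover counting error only and are often narrower than the points. Mlkl and Ripk3 lay at 6.60 and 7.01 CPM in the control and at 245 and 42.5 CPM in CANDI470, while Fadd and Tradd were lower in CANDI470.

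Mlkl, the executioner of necroptosis, was counted 7937 times with CANDI470 and 239 times with PBS, or 245 and 6.60 CPM. The ratio of 37.2 (95% exact interval 32.7 to 42.45) and the log2 difference of 5.02 were the largest of the 8. Only 1.87% of all genes had a larger log2 difference, which placed Mlkl at rank 240. Across 14 other ways of processing, its difference ranged from 4.35 to 5.19.

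Ripk3, the kinase that phosphorylates MLKL, was counted 1376 times with CANDI470 and 254 times with PBS, or 42.5 and 7.01 CPM. It was 6.06-fold higher (5.30 to 6.96), a log2 difference of 2.44 that 8.28% of all genes exceeded. So the necroptosis kinase and its substrate, which lay at close levels in the control, were both higher in CANDI470, with the larger ratio for the substrate. Counted within each library, which needs no scaling between them, there were 94.1 Mlkl counts per 100 Ripk3 counts in the control (78.5 to 113) and 577 in CANDI470 (545 to 611). Their gene models are of nearly the same length, at 2303 and 2292 bases. After removal of GC and length trends, the log2 differences were 5.15 for Mlkl and 3.02 for Ripk3.

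Ripk1, the kinase and scaffold upstream of both death routes, was counted 4667 times with CANDI470 and 2398 times with PBS, or 144 and 66.2 CPM. It was 2.18-fold higher (2.07 to 2.29), and its log2 difference of 1.11 lay close to the 2-fold limit. It was 1.01 with TMM factors computed over all shared identifiers. The 2-fold call ended with library totals (0.41), upper-quartile scaling (0.74) and removal of GC and length trends (0.61). Library totals and upper-quartile scaling also moved the median of all genes, to -0.69 and -0.38, and with library totals centred on the median gene Ripk1 was at 1.10. Ripk3 counts per 100 Ripk1 counts were 10.6 in the control (9.27 to 12.1) and 29.5 in CANDI470 (27.7 to 31.3). The Ripk1 model overlaps that of Serpinb6a, a protease inhibitor gene on the opposite strand counted 2975 times with CANDI470 and 21390 times with PBS. Since the strand setting of the counting was not given, the effect of this overlap on Ripk1 was not tested.

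Casp8, the initiator protease that starts apoptosis and cleaves RIPK1 and RIPK3, was counted 6830 times with CANDI470 and 1968 times with PBS, or 211 and 54.3 CPM. It was 3.88-fold higher (3.69 to 4.09), a log2 difference of 1.94. The brake on caspase-8 differed by far more. Cflar was counted 58408 times with CANDI470 and 2888 times with PBS, or 1805 and 79.8 CPM, a ratio of 22.6 (21.8 to 23.5) and a log2 difference of 4.48 that 2.37% of all genes exceeded. In the ranking of all 12779 genes by CPM, Cflar stood at place 83 in CANDI470 and 1906 in the control. For every 100 Casp8 counts there were 147 Cflar counts in the control (139 to 156) and 855 in CANDI470 (834 to 877), a ratio between libraries of 5.83. This ratio can carry GC and length trends. With those trends removed, the log2 differences were 3.78 for Cflar and 1.97 for Casp8. Cflar alone took 70.8% of the counts of the 8 genes in CANDI470 and 25.8% in the control.

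Cflar and Casp8 are neighbours on mouse chromosome 1. In GRCm38, as given in the control table, Cflar lies from 58711508 to 58758884 and Casp8 from 58795374 to 58847503, both on the plus strand. The 1 gene model between them that the tables share, the pseudogene Gm3841, had 0 counts in both libraries. Cflar has a model of 12669 bases of merged exons in GENCODE M21, of which 11.8% are coding. Casp8 has 2893 bases, of which 51.8% are coding.

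The adaptor genes went the other way. Fadd, which links death receptors to caspase-8, was counted 240 times with CANDI470 and 621 times with PBS, or 7.42 and 17.1 CPM. It was 2.31-fold lower (1.99 to 2.69), a log2 difference of -1.11, and it was within 2-fold with a pseudocount of 5 CPM (-0.83), with CPM per kilobase (-0.89) and after removal of GC and length trends (-0.94). Tradd, the adaptor that recruits RIPK1 to TNFR1, was counted 550 times with CANDI470 and 1157 times with PBS, or 17.0 and 31.9 CPM. It was 1.88-fold lower (1.70 to 2.08), a log2 difference of -0.87, which became -1.55 with library totals, -1.23 with upper-quartile scaling and -0.13 after removal of GC and length trends. Both adaptors had lower CPM in CANDI470, but the size for Tradd depended on these choices.

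Set against the counts of their partners within a library, both adaptors stood lower in CANDI470. There were 31.5 Fadd counts per 100 Casp8 counts in the control (28.8 to 34.5) and 3.51 in CANDI470 (3.08 to 3.997), an 8.98-fold difference. Tradd counts per 100 Ripk1 counts were 48.2 in the control (44.9 to 51.8) and 11.8 in CANDI470 (10.8 to 12.9), a 4.09-fold difference. These ratios need no scaling between libraries but can carry GC and length trends. With such trends removed, the log2 differences were -0.13 for Tradd and 0.61 for Ripk1, and -0.94 for Fadd and 1.97 for Casp8. The part of the Serpinb6a overlap in the Ripk1 counts was not tested.

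Cyld, the deubiquitinase that removes K63-linked chains from RIPK1, was counted 2432 times with CANDI470 and 1672 times with PBS, or 75.2 and 46.2 CPM. It was 1.63-fold higher (1.53 to 1.73), a log2 difference of 0.69. Its direction depended on the processing, with -0.01 under library totals and -0.17 after removal of GC and length trends. Cyld counts per 100 Ripk1 counts were 69.7 in the control (65.5 to 74.2) and 52.1 in CANDI470 (49.6 to 54.7).

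**Figure D2:**
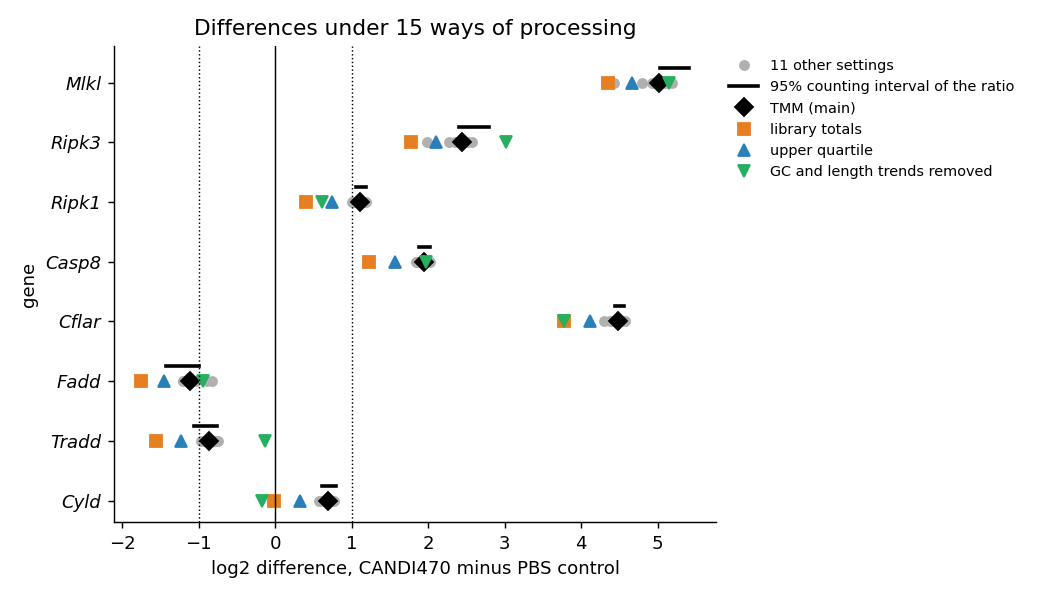
Log2 difference of each gene, CANDI470 minus PBS control, under TMM scaling (diamonds) and 14 alternatives, with black bars for the 95% counting interval of the unadjusted ratio and dotted lines at 2-fold. Mlkl, Cflar, Ripk3 and Casp8 stayed to the right of the 2-fold line under all of them, while Cyld reached -0.17 and Tradd ranged from -1.55 to -0.13.

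To set levels of different genes side by side, CPM was divided by the length of merged exons. That length pools all transcripts of a gene, so the order below depends on it. In the control, Casp8 led with 18.8 CPM per kilobase of merged exons (18.0 to 19.6), followed by Tradd at 17.1 (16.2 to 18.1), whose counting interval overlapped it. Ripk1 was at 7.94, Cflar at 6.29, Fadd at 4.39 and Cyld at 3.67 CPM per kilobase. Ripk3 at 3.06 (2.69 to 3.46) and Mlkl at 2.87 (2.51 to 3.25) were the lowest, and their intervals overlapped. The necroptosis-specific pair was thus at the bottom of the order in the PBS control.

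In CANDI470 the order per kilobase was a different one. Cflar led at 142 CPM per kilobase (141 to 144), then came Mlkl at 107 (104 to 109) and Casp8 at 73.0 (71.2 to 74.7). Ripk3 at 18.6 (17.6 to 19.6) and Ripk1 at 17.3 (16.8 to 17.8) had overlapping intervals. Tradd was at 9.11, Cyld at 5.98 and Fadd lowest at 1.90 CPM per kilobase. Mlkl moved from the last to the second place and Tradd from the second to the sixth. Per kilobase, there were 195 units of Cflar per 100 of Casp8 in CANDI470 and 33.5 in the control, so the order of these 2 genes was inverted on this measure. By counts Cflar stood above Casp8 in both libraries, at 855 per 100 in CANDI470 and 147 in the control. The inversion thus rests on the lengths used, and the Cflar model pools 13 transcripts of which 4 are protein coding.

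**Figure D3:**
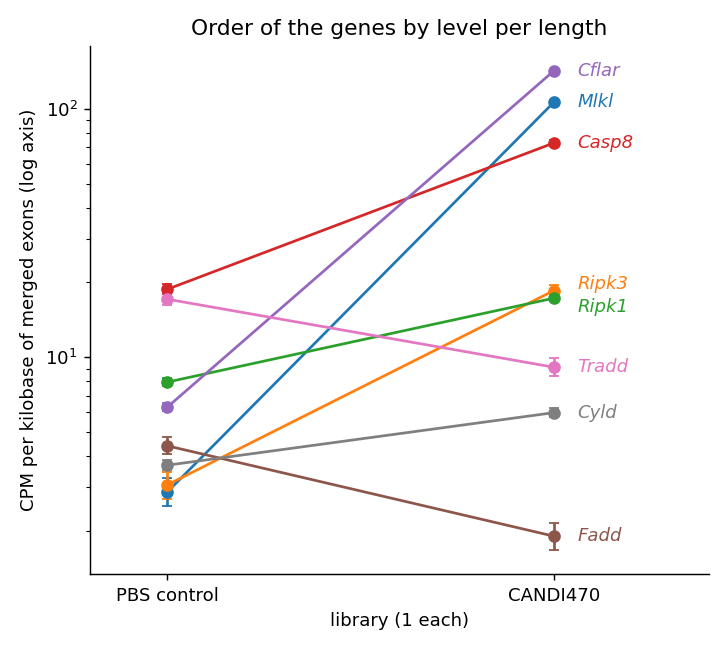
Level of each gene as CPM per kilobase of merged exons, on a log axis, in the PBS control library and the CANDI470 library, with 95% exact Poisson intervals for counting error. The lines of Cflar and Mlkl cross that of Casp8, and Tradd and Fadd slope downwards.

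The promoter windows of the 8 genes were searched because 5 of them were higher in the same library. RefSeq windows on GRCm38.p6 reach from 250 bases before to 50 bases after a start, and 7 genes had at least 1 window, 8 windows in all. Tradd had none. The letters searched on both strands were TTCNNNGAA (the GAS element of interferon-responsive genes), GAAANNGAAA (the core of the ISRE element bound by interferon regulatory factors) and GGGANNTTCC (an NF-kB element). They occurred in 8.30%, 3.44% and 1.47% of all 32851 windows. The ISRE core was present in the Cflar window, starting 7 bases after the start on the minus strand, and in 1 of 2 Ripk1 windows. That Ripk1 window also held the GAS letters at 108 and 11 bases before the start, and the nearer of these overlaps the ISRE core. It lies inside the gene model, which starts at 34002363. The other Ripk1 window (chr13:34002113-34002412) spans that start and held none of the 3 motifs. The NF-kB letters were found in the Cyld window. The windows of Mlkl, Ripk3, Casp8 and Fadd held none of the 3 motifs, which says only that these letters are not there. The Casp8 window (chr1:58802252-58802551) lies inside the gene model, so the upstream start of that model at 58795374 was not searched.

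Printed are the windows of the pair with the largest ratios, Mlkl (chr8:111338156-111338455, minus strand) and Cflar (chr1:58711241-58711540, plus strand), and the Ripk1 window with matches (chr13:34002624-34002923, plus strand). Each runs 5′ to 3′ along the gene's strand, and capitals mark the motif matches.
Mlkl: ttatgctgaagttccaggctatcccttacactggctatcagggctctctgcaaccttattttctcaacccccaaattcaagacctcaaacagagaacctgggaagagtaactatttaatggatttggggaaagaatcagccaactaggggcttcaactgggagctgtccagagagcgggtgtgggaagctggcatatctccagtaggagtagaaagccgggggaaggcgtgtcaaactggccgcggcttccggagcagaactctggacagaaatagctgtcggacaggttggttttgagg
Cflar: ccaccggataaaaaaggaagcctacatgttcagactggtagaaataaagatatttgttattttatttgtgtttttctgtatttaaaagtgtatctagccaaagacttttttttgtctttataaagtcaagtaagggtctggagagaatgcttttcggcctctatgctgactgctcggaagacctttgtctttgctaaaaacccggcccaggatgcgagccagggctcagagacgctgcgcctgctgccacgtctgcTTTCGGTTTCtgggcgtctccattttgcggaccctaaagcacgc
Ripk1: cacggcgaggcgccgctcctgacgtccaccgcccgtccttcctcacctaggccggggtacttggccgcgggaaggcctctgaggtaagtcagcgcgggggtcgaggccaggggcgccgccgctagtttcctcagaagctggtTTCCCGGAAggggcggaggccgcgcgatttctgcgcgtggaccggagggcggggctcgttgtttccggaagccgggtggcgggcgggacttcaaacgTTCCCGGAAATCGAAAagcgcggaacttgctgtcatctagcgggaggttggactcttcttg

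Other genes of the pathways are given from 11 lists with 94 genes. Each count is to be read against the 25.7% of all genes that were at least 2-fold higher and the 23.6% that were at least 2-fold lower. Of 7 measured death ligands and receptors, 4 passed 2-fold upwards in CANDI470 and 0 downwards, with a median log2 difference of 1.91. Tnfsf10, which encodes the death ligand TRAIL, was at 220 against 3.01 CPM, a log2 difference of 5.78. The death receptor gene Fas was at 3.57, Tnfrsf1b (TNFR2) at 3.43 and Tnf at 1.91. The 2 annotations give Fas models of 2062 bases (CANDI470) and 1801 bases (PBS). Of 7 genes listed as sensors and adaptors of necroptosis, not all of which promote it, 6 were higher and 0 lower (median 2.79). In this list 4 genes were higher under library totals and under upper-quartile scaling. There, 1 gene was lower under library totals and after removal of GC and length trends. Zbp1, which engages RIPK3 through its own RHIM, led with 613 against 13.2 CPM (log2 difference 5.43), followed by the double-stranded RNA kinase gene Eif2ak2 at 3.55, Tlr3 at 3.31 and Adar, which edits double-stranded RNA and restrains ZBP1, at 2.79.

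Of 10 genes of the TNF receptor complex, 7 passed 2-fold upwards and 1 downwards (median 1.54). With library totals 3 of them passed upwards, and after removal of GC and length trends 0 passed downwards. The inhibitor of apoptosis genes Birc3 and Birc2, whose products ubiquitinate RIPK1, were at 2.81 and 1.67, the adaptor gene Traf2 at 2.20 and Rnf31, the catalytic subunit of the linear ubiquitin ligase LUBAC, at 2.22. Rbck1, a LUBAC partner subunit, was at -1.13, and at 0.04 after removal of GC and length trends. Of 7 deubiquitinases and ubiquitin binders, 3 were higher and 1 lower (median 0.88), with 2 lower under library totals and upper-quartile scaling. Tnfaip3, which encodes A20, was at 4.85 with 1246 against 42.4 CPM, Tnip1 at 3.28 and Optn at 2.79, while Otulin, which removes linear chains, was at -1.81. The deubiquitinases A20 and CYLD thus differed in size, with a log2 difference of 4.85 for Tnfaip3 and 0.69 for Cyld.

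Of 10 genes of kinases and kinase partners that restrain RIPK1, 3 were higher and 1 lower (median 0.66), which is near the shares over all genes. Ikbkg (NEMO) was at 2.53, Tbk1 at 1.83 and Tab3 at 1.44, while the TAK1 partner gene Tab1 was at -2.11. Of 10 regulators of the complex of RIPK3 and MLKL, 5 were higher and 0 lower (median 1.04). Other settings gave lower genes too, namely 3 with library totals, 2 with the upper quartile, and 1 each with TMM over all shared identifiers and with CPM per kilobase. The list was led by the chaperones Hsp90aa1 at 3.15 and Hsp90ab1 at 2.35, with Pgam5 at 1.77 and the kinase gene Csnk1g1 at 1.68. The 3 inositol phosphate kinases that make activators of MLKL were all within 2-fold, except that 1 was higher after removal of GC and length trends, with Itpk1 at 0.68, Ipmk at 0.66 and Ippk at -0.27. Of 9 genes of ESCRT-III membrane repair, which can remove MLKL-damaged membrane, 3 were higher and 0 lower (median 0.58), the first near the share over all genes, namely Chmp4b at 1.67, Chmp5 at 1.18 and Vps4b at 1.08, while Pdcd6ip (ALIX) was at 0.62. With library totals 0 of the 9 reached 2-fold higher, and with upper-quartile scaling 1 did.

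Of 11 genes of executioner caspases and the mitochondrial arm, 4 passed 2-fold upwards and 3 downwards (median 0.03), the latter near the share over all genes. The number lower was 5 with library totals, and 1 with a pseudocount of 5 CPM, with CPM per kilobase and after removal of GC and length trends. Apaf1, the scaffold of the apoptosome, was at 2.40 and Cycs (cytochrome c) at 2.22, and the pore-forming gene Bax was at -1.61. Of 8 pyroptosis genes linked to caspase-8, 5 were higher and 2 lower (median 2.12), the latter becoming 1 with DESeq2 size factors or a pseudocount of 5 CPM and 0 with CPM per kilobase, with Il1b at 6.47, Casp4 at 4.64, Nlrp3 at 3.02, Casp1 at 2.77 and the gasdermin gene Gsdme at -2.01. Casp1 has models of 3136 bases (CANDI470) and 1497 bases (PBS). Of 10 genes of interferon signalling, 8 were higher and 1 lower (median 2.30), and 5 were higher with library totals. Irf7 was at 5.04, Stat2 at 4.23 and Irf1 at 3.81. Ifnb1, the interferon-beta gene, was counted 379 times with CANDI470 and 0 times with PBS, at least 141-fold higher if 3 counts per library are taken as the floor, while the interferon-gamma receptor gene Ifngr1 was at -3.07.

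**Figure D4:**
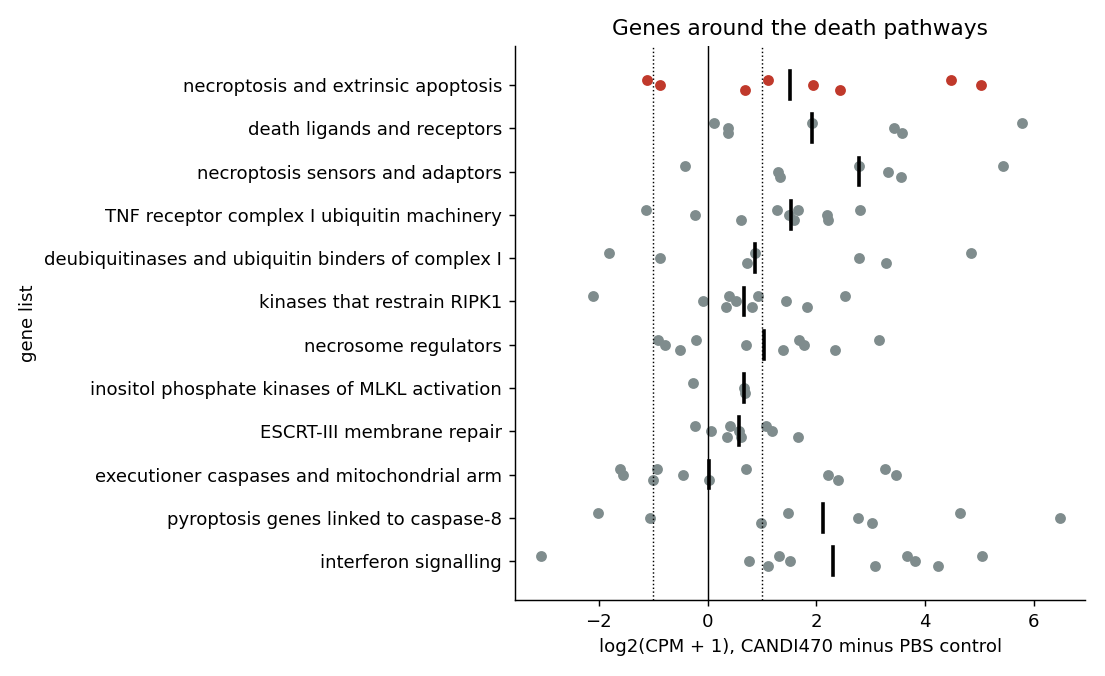
Log2 difference, CANDI470 minus PBS control, of every measured gene in the 8-gene set (red) and in 11 lists of pathway genes (grey), 1 point per gene, with a black bar at each median and dotted lines at 2-fold. The list of necroptosis sensors and adaptors, which includes the restraining gene Adar, had a median of 2.79. The executioner and mitochondrial list had one of 0.03.

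**Figure D5:**
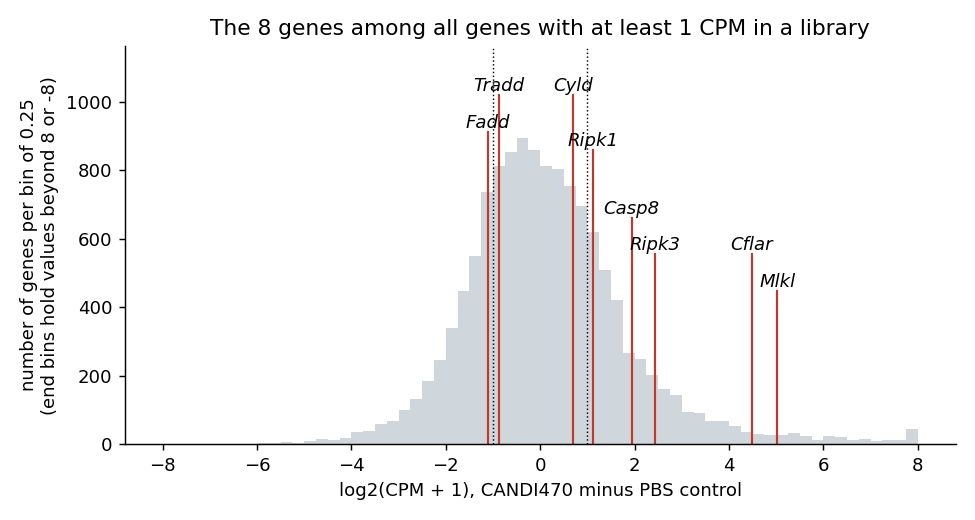
Number of genes by log2 difference, CANDI470 minus PBS control, for the 12779 genes measured, with red lines at the 8 genes and dotted lines at 2-fold. Mlkl at 5.02 and Cflar at 4.48 lie in the right tail, and Fadd at -1.11 and Tradd at -0.87 lie left of the centre.

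Markers of other cell types also differed between the libraries, most higher in CANDI470 and some lower. The 10 neutrophil markers, all detected in CANDI470, summed to 700 CPM there and 8.12 CPM in the control, and all 7 that were measured at 1 CPM were at least 2-fold higher, led by Lcn2 at 388 CPM, Ngp at 110 CPM and S100a9 at 94.3 CPM. The other 4 were S100a8, counted 1206 and 53 times, Mmp8, counted 1063 and 25 times, Ltf, counted 977 and 21 times, and Camp, counted 224 and 2 times. The 3 neutrophil markers that stayed below 1 CPM in both libraries were Ly6g, Mpo and Elane. Ly6g was counted 27 times with CANDI470 and 0 times with PBS, Mpo 9 and 12 times, and Elane 2 and 10 times. The 7 mast cell and basophil markers summed to 241 and 0.663 CPM, of which Hdc held 199 CPM in CANDI470, with Prss34 at 14.99 and Cpa3 at 9.55 CPM. The 7 dendritic cell markers summed to 592 and 7.43 CPM, led by Ccr7 at 433, Itgax at 126 and Btla at 21.8 CPM. Zbtb46 and Xcr1 were at 9.03 and 1.42 CPM in CANDI470, while Flt3 and Siglech stayed below 1 CPM in both libraries. Flt3 was counted 30 times with CANDI470 and 4 times with PBS, and Siglech 0 and 1 times. The T and NK cell markers summed to 37.0 and 13.8 CPM, with Gzmb at 26.1 CPM, Cd4 at 4.91 CPM (13.5 CPM in the control) and Prf1 at 2.75 CPM in CANDI470. Cd8a was at 1.67 CPM there. Below 1 CPM in both libraries were Cd3e, counted 20 times with CANDI470 and 3 times with PBS, Cd3d (8 and 0) and Nkg7 (23 and 0). So were Ncr1 (0 and 0) and Klrb1c (0 and 8). The fibroblast markers summed to 8.78 and 0.0276 CPM, with Thy1, Col1a1 and Dcn at 3.43, 1.76 and 1.73 CPM in CANDI470. The B and plasma cell markers summed to 11.2 and 149 CPM, of which Ighm held 8.59 and 148 CPM, beside Igkc at 2.04 CPM in CANDI470. Listed at 0 counts in the control were 1 neutrophil, 3 mast cell and basophil, 0 dendritic cell, 6 T and NK cell, 3 B and plasma cell and 5 fibroblast markers. Whether such cells were present, and what part they had in the levels of the 8 genes, was not tested.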

How the data were processed

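Polyadenylated RNA was sequenced as paired reads of 150 bases in 1 CANDI470 and 1 PBS control sample. The authors deposited whole-number counts per gene without normalization, per the file headers, and log2 values headed logCPM. Those deposited log2 values followed log2(count × factor + 1), with 1 factor per library, to within 5e-14 for 12726 genes. The submitters' processing notes name mm10, while aligner, counter, strand setting and annotation are not given in the sources used here. Among the control columns are 3 count columns that match no listed sample, and these were not used.

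Identifiers found in both tables covered 99.4% (CANDI470) and 99.5% (PBS) of all counts. TMM factors (edgeR 4.0.16, R 4.3.3), computed on genes with at least 1 CPM of the library total, were 0.782 and 1.28. That minimum was set after factors over all shared identifiers (0.810 and 1.23) were seen to differ from an earlier processing of these data. Genes with at least 1 scaled CPM in a library were kept, and a pseudocount of 1 CPM was used. Intervals are 95% exact Poisson for levels and exact conditional binomial (Clopper-Pearson, scipy 1.17.1) for ratios. PCR copies may be among the reads, so these intervals cover counting error only. A count of 0 was set against 3 counts, 0.0927 CPM in CANDI470 and 0.0828 in the control. The procedure was run on simulated counts drawn from the control library with few genes changed. This does not bear on scaling where as many genes differ as here. Gene structure and GC content came from GENCODE M21.

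The 8 genes, the lists and the rules were chosen with earlier results of these data known. Named were all 8 genes, up to 4 genes of each pathway list ordered by absolute difference, with the most opposite gene where it passed 2-fold, and up to 3 markers per cell type by CPM. Genes named outside this rule (Serpinb6a, Gm3841 and the neutrophil markers S100a8, Mmp8, Ltf, Camp, Ly6g, Mpo and Elane) were added after their values were seen, and 3 genes that the rule names are not reported here. Other scalings were library totals, the upper quartile, DESeq2 1.42.0 size factors and the deposited log2 values. Other choices were pseudocounts of 0.1 or 5 CPM, a limit of 5 CPM or none at all, restriction to protein-coding genes or to genes of equal length in both tables, CPM per kilobase, and removal of GC and length trends over 20 bins. Centring of the library-total values on the median gene, and TMM over all shared identifiers, were added after seeing the data.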

Additional observations from a re-analysis of the deposited data

How the results depend on the processing

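No paired analysis was possible because each group held 1 sample, and no replicate could be left out. Under 14 alternatives, 4 or 5 of the 8 genes were at least 2-fold higher. The number at least 2-fold lower was 1, but 2 with library totals and with upper-quartile scaling, and 0 with a pseudocount of 5 CPM, with CPM per kilobase and with GC and length trends removed. The median of the 8 genes, 1.52, was 1.61 with DESeq2 size factors, 0.82 with library totals and 1.16 with upper-quartile scaling. It was 1.42 with TMM over all shared identifiers and 1.29 with GC and length trends removed. Under the other alternatives it lay between 1.47 and 1.56. Over all genes, library totals gave 2080 at least 2-fold higher and 5152 lower, upper-quartile scaling 2581 and 4063, and a pseudocount of 5 CPM gave 1774 lower, against 3282 and 3013. Rbck1 changed sign, to 0.04, with GC and length trends removed. The cause of these changes was not tested. Ratios of counts within a library do not depend on the scaling, but GC and length trends were not removed from them.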
